A study of Rattus norvegicus with 9 samples.

Results

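Endothelial cells line every vessel of the brain, and the genes described here are 8 of those by which they are commonly recognised, Cldn5, Pecam1, Flt1, Kdr, Cdh5, Tek, Vwf and Cd93. They were chosen by name from the 37209 rows of the gene count table, with earlier results of these same rats known, so that their differences between groups are given as a description and without a test of the list. All 8 were counted in all 9 rats, and all 8 were among the 16837 genes that passed the filter on low counts. The RNA came from the frontal cortex of 9 male Wistar rats aged 14 weeks, the region that the study calls the PFC, with 3 rats in each group. Control rats (A1, A2 and A6) were left with their mothers. MS rats (B3, B4 and B6) underwent maternal separation, 4 h per day from PND 1 to PND 21. MS+EA rats (C3, C10 and C16) underwent the same separation and then electroacupuncture at the points GV20 and GV29 every other day from PND 61 to PND 81. The labels state that Control and MS rats were anaesthetized on that schedule as well, and no sham-acupuncture group is among the samples analysed here. The comparisons ask whether separation left a difference in adult cortex and whether electroacupuncture altered it.

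The 8 genes cover the main tasks of the endothelial surface. Cldn5 encodes claudin-5, the principal tight junction protein of the blood-brain barrier, Cdh5 encodes VE-cadherin of the adherens junctions, and Pecam1 encodes an adhesion molecule at cell borders. Flt1 and Kdr encode VEGF receptors 1 and 2, of which the second carries most of the growth signal and the first binds VEGF tightly and limits it. Tek encodes TIE2, the receptor of the angiopoietins, which keeps vessels quiescent or destabilises them according to the ligand. Vwf encodes the clotting factor stored in endothelial granules, and Cd93 encodes a C-type lectin that anchors endothelial cells to the matrix. Several of these genes are not strictly endothelial, since platelets also make Vwf and Pecam1, and myeloid cells also make Pecam1 and Cd93. In RNA from whole tissue, fewer or more endothelial cells cannot be told apart from less or more RNA per cell.

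Between 12479905 and 19007907 reads were counted on genes per rat, and all 3 totals of the MS+EA group lay below those of the other groups. The 8 genes received between 130 and 2282 reads each per rat, which puts the counting error of a single value between 2.09% and 8.77%. Levels are given in CPM as edgeR computes it, with the TMM-normalized library size as the denominator. They do not allow for gene length and are therefore compared between rats and not between genes. Neuron markers were abundant in all 9 rats, as in cortex, with Snap25, a synaptic vesicle fusion protein, at 1991 to 2742 CPM. One MS library, B4, stood apart by the markers of the meninges and of vessel walls. Summed over 10 fibroblast and meningeal markers its level was 543 CPM, against 49.5 to 60.0 CPM in Control rats, 71.5 and 128 CPM in the other MS rats and 74.6 to 291 CPM in MS+EA rats. Results that rest on this library are given with and without it.

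Promoter sequences, from 250 bases before to 50 bases after the annotated start, were found for 3 of the 8 genes in RefSeq (build GRCr8), and they are shown because all 8 genes had positive fitted differences for MS against Control. The reads had been mapped to another build, Rnor_6.0, so these positions are not those of the counted reads. The Cldn5 promoter lies at chr11:95718549-95718848 on the minus strand, the Flt1 promoter at chr12:12333180-12333479 and the Kdr promoter at chr14:32571813-32572112, both on the plus strand. Capitals mark matches on either strand to 5 short motifs that do not overlap each other in these windows. ETS factors, the family of Erg and Fli1, bind around AGGAAG. Another ETS core is written CCGGAA. The E-box was searched as CACGTG, the TATA box as TATAAA and the site of GATA factors as GATAAG.
Cldn5: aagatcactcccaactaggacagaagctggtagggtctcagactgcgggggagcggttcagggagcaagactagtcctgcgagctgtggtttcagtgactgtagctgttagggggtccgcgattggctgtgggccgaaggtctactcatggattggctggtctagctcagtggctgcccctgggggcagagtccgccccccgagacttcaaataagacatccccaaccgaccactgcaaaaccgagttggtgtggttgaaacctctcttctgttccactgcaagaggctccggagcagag
Flt1: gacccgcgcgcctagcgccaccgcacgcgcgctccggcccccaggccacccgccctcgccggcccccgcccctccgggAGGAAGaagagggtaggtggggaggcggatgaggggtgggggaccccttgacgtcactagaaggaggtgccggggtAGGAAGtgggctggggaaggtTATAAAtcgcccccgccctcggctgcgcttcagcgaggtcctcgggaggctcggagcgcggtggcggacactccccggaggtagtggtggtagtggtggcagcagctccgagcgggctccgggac
Kdr: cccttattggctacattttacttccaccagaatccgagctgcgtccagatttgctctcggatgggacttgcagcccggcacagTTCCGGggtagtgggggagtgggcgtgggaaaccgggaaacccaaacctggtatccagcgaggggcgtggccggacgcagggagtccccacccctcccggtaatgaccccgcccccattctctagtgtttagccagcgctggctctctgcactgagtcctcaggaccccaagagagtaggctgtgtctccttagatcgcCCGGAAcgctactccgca
The Flt1 promoter held AGGAAG 172 and 96 bases before the start and TATAAA 75 bases before it. The Kdr promoter held CCGGAA 33 bases after the start and, on the opposite strand, 167 bases before it. None of the 5 motifs was found in the Cldn5 window. Such matches are common. Of 33469 rat promoters of this length, 34.5% held AGGAAG, 15.0% CCGGAA, 14.2% TATAAA, 7.05% GATAAG and 6.42% CACGTG. The matches describe letters in a window. Pecam1, Cdh5, Tek, Vwf and Cd93 had no entry in the promoter table used here.

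Cldn5 was higher in all 3 MS rats than in any rat of the other groups, by a small margin. With the rats of each group in the order given above, its level was 49.7, 44.9 and 47.9 CPM in Control, 58.9, 60.9 and 55.4 CPM in MS and 50.6, 47.0 and 49.2 CPM in MS+EA rats. The group means were 47.5 ± 2.45 CPM in Control, 58.4 ± 2.80 CPM in MS and 48.9 ± 1.85 CPM in MS+EA rats (SD, n = 3 each). The spread between rats of a group was the smallest of the 8 genes in the Control and MS+EA groups, with coefficients of variation of 5.15% and 3.78%. On the log2 scale the fitted difference was 0.30 (SE 0.08) for MS against Control, -0.25 (SE 0.08) for MS+EA against MS and 0.04 (SE 0.08) for MS+EA against Control. Without B4 the first of these was 0.27. The fibroblast and meningeal sum was also above every Control rat in B3 and B6, and so it was in all MS+EA rats, at 74.6 to 291 CPM.

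Pecam1 also had its highest group mean in MS rats, with ranges that overlapped. It stood at 18.1, 15.5 and 22.7 CPM in Control rats, 26.0, 21.3 and 20.6 CPM in MS rats and 22.8, 14.9 and 16.6 CPM in MS+EA rats. The fitted log2 difference was 0.27 (SE 0.17) for MS against Control and -0.32 (SE 0.18) for MS+EA against MS.

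Cdh5, whose product holds the adherens junctions together, differed from Cldn5 and Pecam1 in that its highest group mean was in MS+EA rats. It was at 13.0, 11.8 and 14.5 CPM in Control rats, 11.8, 18.5 and 13.5 CPM in MS rats and 17.7, 11.5 and 19.9 CPM in MS+EA rats. All 3 ranges overlapped, and the high values belonged to B4, C3 and C16, which were also the 3 rats with the highest summed level of fibroblast and meningeal markers. The fitted log2 difference for MS against Control was 0.16 (SE 0.20), and without B4 it was -0.05.

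Of the receptors, Kdr differed most between MS and Control rats. Its level was 27.6, 26.3 and 20.5 CPM in Control rats, 35.2, 59.8 and 41.8 CPM in MS rats and 40.0, 27.1 and 30.1 CPM in MS+EA rats. Every MS rat was above every Control rat, while the MS+EA range overlapped both, with C3 inside the MS range and C10 inside the Control range. The fitted log2 difference was 0.88 (SE 0.19) for MS against Control, a 1.84-fold higher level, -0.49 (SE 0.19) for MS+EA against MS and 0.39 (SE 0.20) for MS+EA against Control. B4 held the highest value, and without it the differences were 0.63 for MS against Control and -0.24 for MS+EA against MS.

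Flt1, the other VEGF receptor of the list, differed little. It was at 16, 11.8 and 15.0 CPM in Control rats, 18.8, 15.4 and 15.5 CPM in MS rats and 17.5, 12.7 and 14.5 CPM in MS+EA rats. The ranges of the 3 groups overlapped, and the fitted log2 difference was 0.22 (SE 0.15) for MS against Control and -0.15 (SE 0.16) for MS+EA against MS. The number of Kdr reads per 100 Flt1 reads, a ratio within each library that needs no normalization, was 137 to 223 in Control rats, 187 to 389 in MS rats and 208 to 229 in MS+EA rats. In B4 it was 389 and in the other MS rats 187 and 271.

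The ligands of these receptors were counted as well. None of the 8 VEGF and angiopoietin genes tested passed both thresholds, an adjusted p under 0.05 over all genes (edgeR's quasi-likelihood F test, Benjamini-Hochberg) and a fold change above 1.5, in any comparison. Vegfa, the main ligand of Kdr, was at 74.2, 68.5 and 68.1 CPM in Control rats, 78.3, 72.7 and 68.4 CPM in MS rats and 69.6, 76.1 and 78.8 CPM in MS+EA rats, and its fitted log2 difference for MS against Control was 0.06 (SE 0.08). Angpt1, the activating ligand of TIE2, was at 5.41 to 7.26 CPM in Control rats and reached 15.3 CPM in B4 and 13.8 CPM in C16. Angpt2, its context-dependent antagonist, was at 0.803 to 2.49 CPM in Control rats and highest in the same pair, 6.19 CPM in B4 and 4.69 CPM in C16. Figf, the older symbol for Vegfd in this table, stayed under 1 CPM in every rat.

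Tek showed MS and Control ranges that did not overlap and, alone of the 8, an MS+EA range above the Control range. Its level was 40.2, 37.1 and 35.1 CPM in Control rats, 55.5, 60.7 and 48.3 CPM in MS rats and 52.2, 44.8 and 41.7 CPM in MS+EA rats. The lowest MS+EA value lay just above the highest Control value, and the MS and MS+EA ranges overlapped through C3. The fitted log2 difference was 0.55 (SE 0.11) for MS against Control, -0.25 (SE 0.11) for MS+EA against MS and 0.30 (SE 0.11) for MS+EA against Control. Without B4 the first was 0.47 and the second -0.16.

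Tie1, the partner receptor of TIE2, followed Tek against Control. It was at 17.9 to 19.0 CPM in Control rats, 21.9 to 25.2 CPM in MS rats and 22.4 to 26.0 CPM in MS+EA rats, so that all MS and MS+EA rats lay above all Control rats. Its log2 difference was 0.32 (SE 0.10) for MS against Control, with an adjusted p of 0.277 by edgeR, and 0.34 (SE 0.10) for MS+EA against Control, with an adjusted p of 0.0713, and neither passed. Ptprb, the phosphatase that restrains TIE2 (VE-PTP), was also above Control in all 3 MS rats, with a log2 difference of 0.25 (SE 0.10) and an adjusted p of 0.371. Nrp2 and Itgb1, a VEGF co-receptor and an integrin subunit used by TIE2, had overlapping ranges in all 3 comparisons.

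Vwf had the widest spread among MS rats. Its level was 81.4, 66.3 and 83.3 CPM in Control rats, 96.0, 142.7 and 79.4 CPM in MS rats and 107.4, 80.5 and 109.5 CPM in MS+EA rats. The ranges overlapped in every comparison, and B4 alone exceeded all other rats. The fitted log2 difference for MS against Control was 0.46 (SE 0.18), and 0.19 without B4. For MS+EA against MS it was -0.10 (SE 0.18), and its sign turned when B4 (0.18) or C10 (0.03) was left out. Platelets also make Vwf, and their part in its values was not tested. The 7 platelet markers summed to 35.3 to 55.0 CPM in Control, 37.3 to 49.6 CPM in MS and 34.8 to 44.2 CPM in MS+EA rats, nearly all of it from Gp1bb, named here after its values were seen. Of the others, 5 were under 1 CPM in every rat, among them the defining Pf4 and Gp9, and Ppbp was at 0 in all 9. The 2 markers tested did not pass in any comparison.

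Cd93 had the lowest levels of the 8 genes in MS+EA rats relative to the other groups. It was at 12.5, 16.2 and 19.4 CPM in Control rats, 22.5, 24.1 and 24.2 CPM in MS rats and 13.7, 11.1 and 10.3 CPM in MS+EA rats. The MS rats lay within a narrow range above all others, with a coefficient of variation of 4.18%, while Control and MS+EA rats overlapped because A1, the lowest Control rat, was below C3. The group means were 16 ± 3.47 CPM in Control, 23.6 ± 0.986 CPM in MS and 11.7 ± 1.75 CPM in MS+EA rats (SD, n = 3 each). The fitted log2 difference was 0.56 (SE 0.15) for MS against Control, -1.01 (SE 0.16) for MS+EA against MS, which is a ratio of 0.496, and -0.45 (SE 0.16) for MS+EA against Control. The second of these had an edgeR adjusted p of 0.0938 and did not pass. Leaving out B4 gave 0.54 and -0.99 for the first and second comparisons. Omission of any 1 rat left the MS+EA against MS difference between -1.13 and -0.93.

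The position of Cd93 among the 8 genes was also read from raw counts within each library. Per 1000 reads on the other 7 genes, Cd93 received 50.7, 76.0 and 81.1 reads in Control rats, 74.3, 63.5 and 88.3 reads in MS rats and 44.3, 46.3 and 36.7 reads in MS+EA rats. Control and MS rats overlapped in this ratio, and all 3 MS+EA rats lay below all 6 others. Per 100 Cldn5 reads the Cd93 reads numbered 25.1 to 40.5 in Control, 38.1 to 43.8 in MS and 21.0 to 27.0 in MS+EA rats, where A1 fell inside the MS+EA range.

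**Figure D1:**
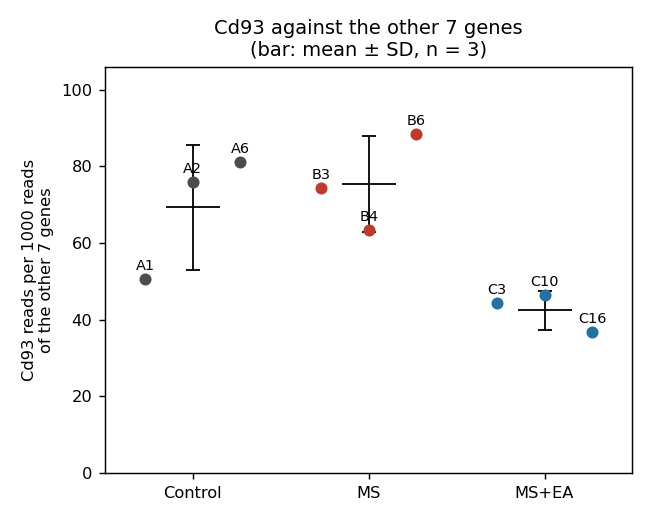
Reads on Cd93 per 1000 reads on the other 7 endothelial identity genes (y axis) in each rat, by group (x axis). Points are rats and bars are the group mean and SD (n = 3). The MS+EA rats lie between 36.7 and 46.3, below the Control rats (50.7 to 81.1) and the MS rats (63.5 to 88.3).

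The relatives and ligands of Cd93 had differing patterns. Clec14a, a lectin of the same group that is also endothelial, was at 2.98 to 5.89 CPM in Control, 6.36 to 10.8 CPM in MS and 5.56 to 9.02 CPM in MS+EA rats, and its log2 difference for MS+EA against MS was -0.20 (SE 0.28). Thbd, thrombomodulin, reached 18.3 CPM in B4 and 24.6 CPM in C16 and was at 3.16 to 9.85 CPM in the other 7 rats. Mmrn2, a matrix ligand of Cd93, was at 8.54 to 12.2 CPM in Control, 9.98 to 13.6 CPM in MS and 10.1 to 16.3 CPM in MS+EA rats. Igfbp7, another ligand, was lower in all MS+EA rats than in any Control rat, with a log2 difference of -0.39 (SE 0.18) and an adjusted p of 0.227 by edgeR, and did not pass. Like Cd93 it had its lowest group mean in MS+EA rats, but its mean in MS rats was below that in Control rats. Markers of myeloid cells, which can also make Cd93, are given beside it, and their part in its values was not tested. Of 12 microglia markers, 11 were lower in MS than in Control rats (median log2 difference -0.10) and 7 lower in MS+EA than in MS rats (median -0.09). In MS+EA rats 10 were lower than in Control rats (median -0.22). By an unadjusted p below 0.05 in that comparison, 2 of the 12 were lower and 0 higher, against 10.6% and 11.9% of all genes tested. No microglia marker passed both thresholds. Their summed level was 378 to 424 CPM in Control, 358 to 397 CPM in MS and 322 to 408 CPM in MS+EA rats. The 8 leukocyte markers counted summed to 6.77 to 8.56 CPM in Control, 9.04 to 11.9 CPM in MS and 5.09 to 9.71 CPM in MS+EA rats, and 7 of them, the defining S100a8 and S100a9 included, were under 1 CPM in every rat. The other, Ptprc (CD45, named here after its values were seen), is shared by microglia. It was higher in all MS than in all Control rats, with a log2 difference of 0.50 (SE 0.20) and an edgeR adjusted p of 0.40, and -0.40 (SE 0.21) for MS+EA against MS with an adjusted p of 0.445.

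**Figure D2:**
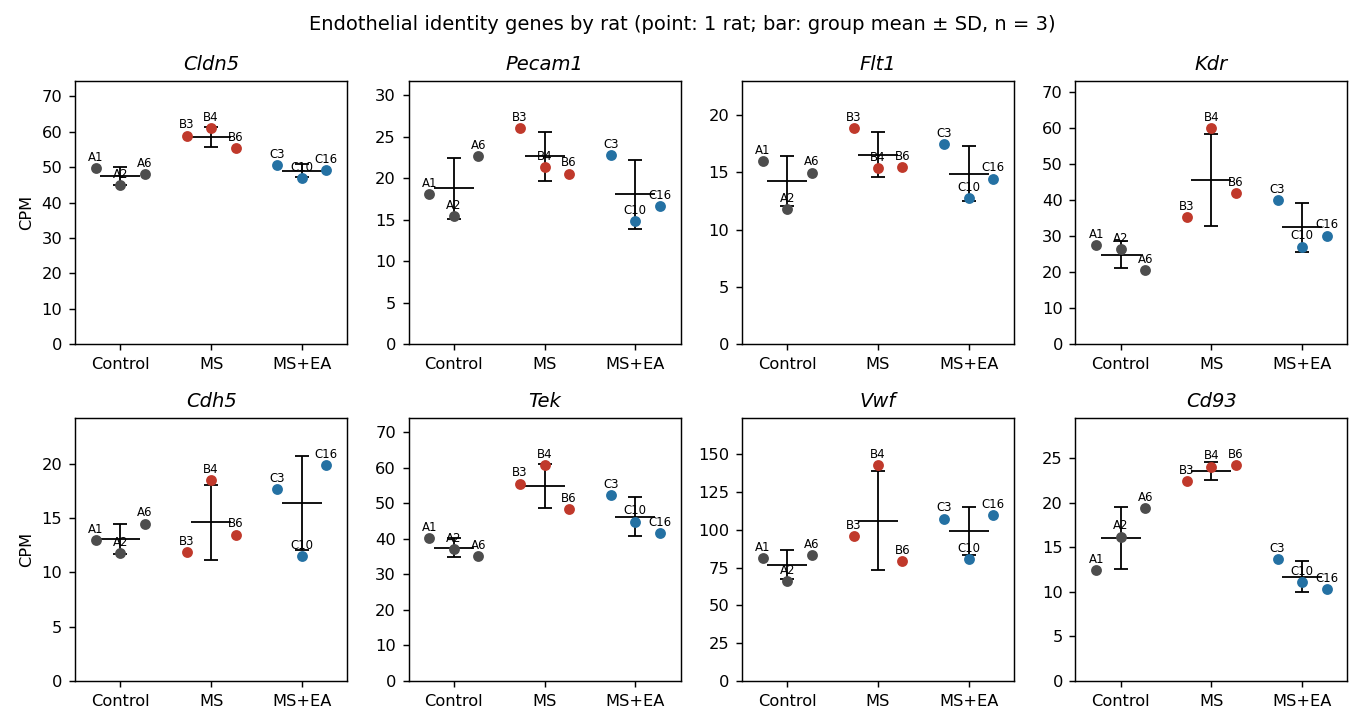
Levels of the 8 endothelial identity genes in CPM (y axis, from 0) by group (x axis). Each point is 1 rat, labelled by its name, and bars are the group mean and SD (n = 3). MS rats are above all Control rats for Cldn5, Kdr, Tek and Cd93, and MS+EA rats are below all MS rats for Cldn5 and Cd93.

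Over the 8 genes, the values chosen by name gave the following counts, of which no test is made. For MS against Control all 8 fitted differences were positive, with a median of 0.38 on the log2 scale against 0.00 over all 16837 genes. The ranges did not overlap for 4 of the 8 (Cldn5, Kdr, Tek and Cd93), all with MS higher, while 10% of all genes tested had non-overlapping ranges with MS higher and 7.53% with MS lower. None of the 8 passed both thresholds with edgeR, which called 0.0238% of all genes, or 4 genes. The smallest edgeR adjusted p of the 8 was 0.108, for Tek, and that of Kdr was 0.129. Counted by an unadjusted p below 0.05, 5 of the 8 were higher, against 7.06% of all genes higher and 3.55% lower. With DESeq2's Wald test 1 of the 8, Kdr, passed both thresholds, against 69 of all 16837 genes.

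Between MS+EA and MS rats, 7 of the 8 differences were negative and Cdh5 was positive, with a median of -0.25 against 0.00 over all genes. The ranges did not overlap for Cldn5 and Cd93, both with MS+EA lower, against 9.6% of all genes with MS+EA lower and 8.27% with MS+EA higher. No member passed both thresholds with edgeR, where 0.0178% of all genes, or 3 genes, did. The smallest edgeR adjusted p of the 8 was 0.0938, for Cd93. By an unadjusted p below 0.05, 4 of the 8 were lower and 0 higher, against 6.42% and 6.01% of all genes. With DESeq2 1 of the 8, Cd93, passed both thresholds, against 42 of all 16837 genes. The MS+EA against Control median of the 8 was 0.18 against 0.01 over all genes, with Cd93 and Pecam1 negative. The ranges did not overlap for Tek, against 13.0% of all genes with MS+EA higher and 12.9% with MS+EA lower. No member passed with edgeR, which called 1.37% of all genes, and the smallest adjusted p of the 8 was 0.118, for Cd93. By an unadjusted p below 0.05 Tek was higher and Cd93 lower, against 11.9% and 10.6% of all genes. DESeq2 called 0 of the 8, against 316 of all 16837 genes. These comparisons share their MS and Control rats and are not independent of each other.

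**Figure D3:**
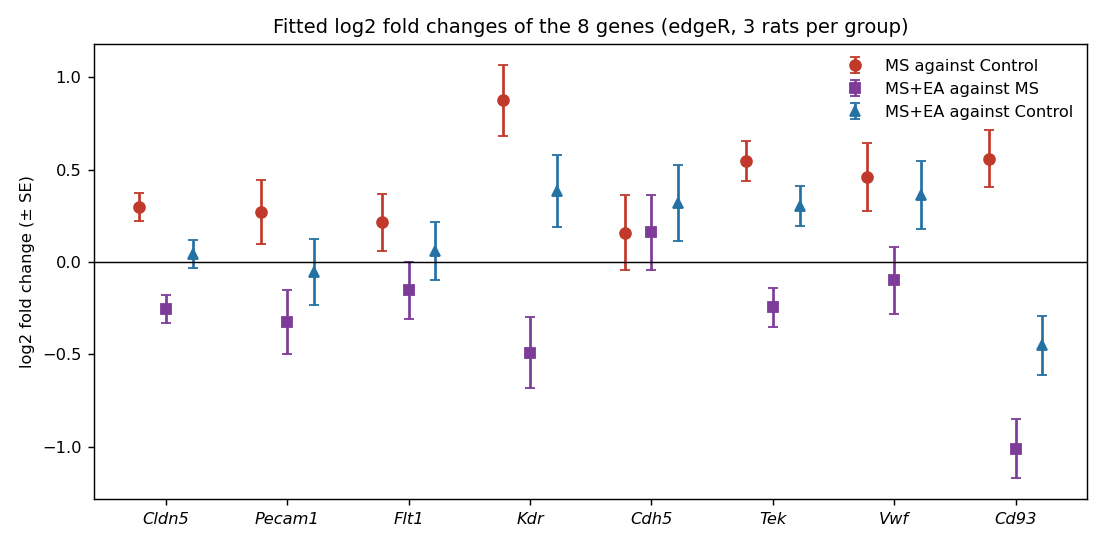
Fitted log2 fold changes of the 8 endothelial identity genes (y axis) with standard errors as bars, for the 3 comparisons. For MS against Control all 8 are above 0, from 0.16 for Cdh5 to 0.88 for Kdr. For MS+EA against MS the values run from -1.01 for Cd93 to 0.16 for Cdh5.

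Other genes of endothelial cells were taken from lists of receptors, lectins, junction proteins, transcription factors and pan-endothelial, arterial and venous genes. Joined, they had smaller median differences than the 8, which had been chosen with earlier results known. The list of Cd93 ligands and group 14 lectins alone, with 4 genes tested, had a larger median for MS against Control, 0.50. Of 98 such genes 96 were in the table under the symbol searched and 87 passed the filter. None passed both thresholds in any comparison with edgeR on all 9 rats and the filter used. For MS against Control 65 of the 87 were higher in MS rats, with a median log2 difference of 0.14. With an unadjusted p below 0.05, 19 were higher and 0 lower, against 7.06% and 3.55% of all genes tested. Without B4 the 19 became 10, again with 0 lower, where 1231 of all 17149 genes tested had such a p in either direction. With DESeq2 1 of the 87, Arhgap29, passed, against 69 of all 16837 genes. In MS+EA rats 63 were lower than in MS rats, with a median of -0.11, or -0.04 without B4. By an unadjusted p below 0.05, 9 were lower and 1 higher, against 6.42% and 6.01% of all genes tested. DESeq2 called 0 there, against 42 of all 16837 genes. Against Control, the MS+EA median was 0.01. By an unadjusted p below 0.05, 11 were higher and 5 lower, against 11.9% and 10.6% of all genes tested. DESeq2 called 3, Aplnr, Arhgap29 and Nr2f2, against 316 of all 16837 genes. In that comparison edgeR called Arhgap29 and Nr2f2 without B4 and with only the 6 rats compared, and Nr2f2 without B6. Over all genes these settings called 304 of 17149, 251 of 16332 and 189 of 17180. With the filter of at least 1 count edgeR called 6 of 96 for MS+EA against Control (Aplnr, Apold1, Arhgap29, Klf4, Nr2f2 and Thbd). It called 3 for MS against Control (Aplnr, Arhgap29 and Foxc1). Over all 25954 genes tested with that filter, 469 and 207 were called.

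Of the 87 other endothelial genes, the pan-endothelial gene Calcrl had the smallest unadjusted p. Calcrl, which forms the receptor for adrenomedullin, was at 15.5 to 17.8 CPM in Control, 23.7 to 25.9 CPM in MS and 21.7 to 24.6 CPM in MS+EA rats. Its log2 difference was 0.57 (SE 0.10) for MS against Control, with an edgeR adjusted p of 0.0643, and 0.48 (SE 0.10) for MS+EA against Control, where the adjusted p of 0.0224 passed and the fold change did not reach 1.5. Arhgap29 was at 26.0 to 33.3 CPM in Control rats and at 66.7 CPM in B4 and 56.8 CPM in C16. Cyyr1 resembled Cldn5 in the order of its groups, with all 3 MS rats, at 32.9 to 34.2 CPM, above all other rats. Tm4sf1 was higher in all MS than in all Control rats, with a log2 difference of 0.67 (SE 0.21) and an edgeR adjusted p of 0.268.

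Junction partners of the claudins and cadherins had a median log2 difference of 0.03 for MS against Control and -0.12 for MS+EA against MS over 14 genes, and 0 passed both thresholds. Tjp1, which encodes the scaffold ZO-1 to which claudins bind, was at 261 to 293 CPM in Control, 299 to 324 CPM in MS and 310 to 353 CPM in MS+EA rats. Its log2 difference for MS+EA against Control, 0.30 (SE 0.07), had an edgeR adjusted p of 0.0359 and was below the fold change threshold. Ctnnb1 and Ctnnd1, the catenins bound by VE-cadherin, were lower in all MS+EA than in all MS rats, with log2 differences of -0.15 (SE 0.06) and -0.21 (SE 0.07). Their adjusted p of 0.357 and 0.29 did not pass. Many cell types of the cortex also express these partners.

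Of 19 endothelial transcription factors tested, 16 were higher in MS than in Control rats, with a median log2 difference of 0.26, and 15 were lower in MS+EA than in MS rats, with a median of -0.17. None passed both thresholds. Mecom was at 4.85 to 7.06 CPM in Control, 8.18 to 9.13 CPM in MS and 7.0 to 7.70 CPM in MS+EA rats, and its log2 difference for MS against Control was 0.56 (SE 0.16) with an edgeR adjusted p of 0.218. Foxc1, also a gene of meningeal and mural cells, was at 18.7 CPM in B4 and 11.6 CPM in C16 and at 4.02 to 7.91 CPM in the other 7 rats. Klf4, a factor induced by blood flow, was lower in all MS+EA than in all MS rats, with a log2 difference of -0.88 (SE 0.34) and an adjusted p of 0.322.

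Venous and activated genes were higher in MS than in Control rats in 8 of 9 cases, with a median log2 difference of 0.35, and arterial genes in 5 of 9, with a median of 0.01, and neither list held a gene past both thresholds. Nr2f2, the venous identity factor, reached 15.3 CPM in B4 and 14.2 CPM in C16, against 5.55 to 7.09 CPM in Control rats, and its log2 difference for MS+EA against Control was 0.92 (SE 0.26) with an edgeR adjusted p of 0.0576. Aplnr, the apelin receptor of venous and sprouting cells, was at 1.43 to 4.39 CPM in Control and 5.47 to 9.07 CPM in MS rats. Vcam1 and Icam1, the adhesion molecules of activated endothelium, had log2 differences of 0.35 (SE 0.12) and 0.60 (SE 0.25) for MS against Control, with adjusted p of 0.299 and 0.425, and were highest in B4. Among arterial genes Dll4, a Notch ligand, had a log2 difference of -0.85 (SE 0.33) for MS+EA against MS, and the ranges overlapped. Sema3g was at 13.8 to 17.6 CPM in Control and 18.3 to 23.5 CPM in MS rats. Of 6 tip cell genes tested 0 passed, Apln, the ligand of Aplnr, among them, with a log2 difference of -0.27 (SE 0.12) for MS+EA against MS.

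**Figure D4:**
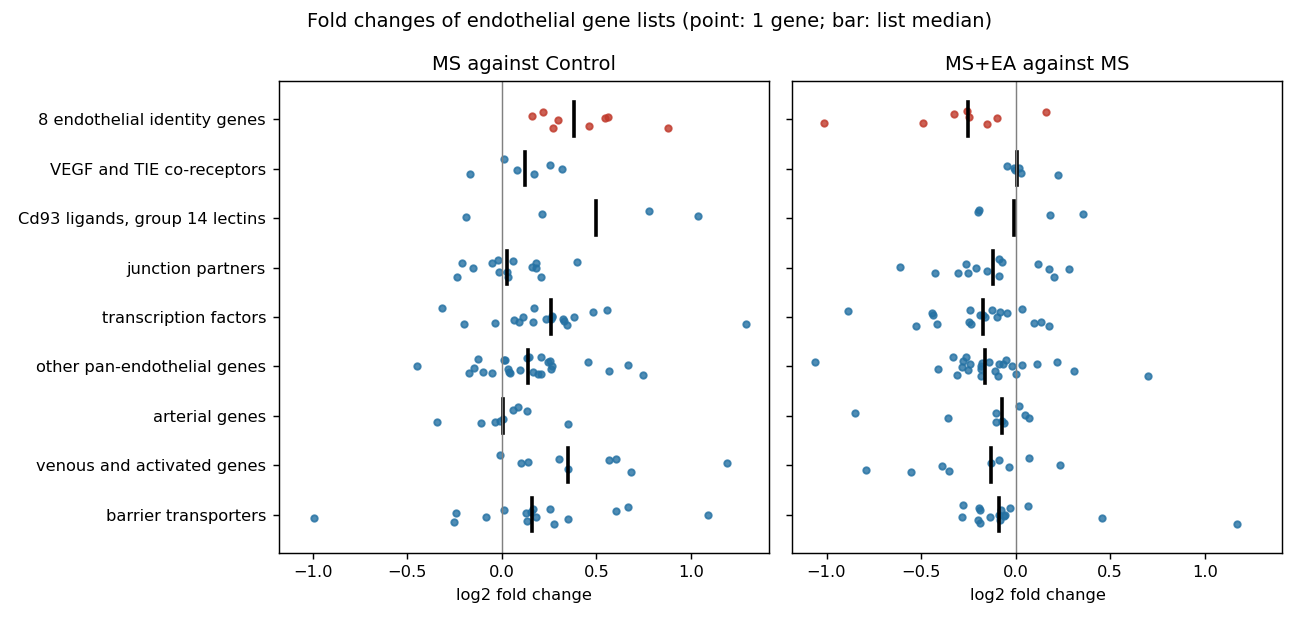
Fitted log2 fold changes (x axis) of the 8 endothelial identity genes (top row) and of lists of other endothelial genes (rows), for MS against Control (left) and MS+EA against MS (right). Points are genes and black bars list medians. The median of the 8 is 0.38 on the left and -0.25 on the right, and that of the 26 other pan-endothelial genes is 0.14 and -0.16.

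Transporters of the blood-brain barrier held the one gene of these lists that passed both thresholds. Slco1a2, an organic anion transporter of brain endothelium, rose in MS against Control, from 74.1, 65.8 and 63.5 CPM to 103, 123 and 97.0 CPM, and was at 97.5, 91.5 and 94.6 CPM in MS+EA rats. The log2 difference was 0.67 (SE 0.09) with an edgeR adjusted p of 0.0421 for MS against Control. It passed in 13 of 17 alternative settings and was lost when A1, A2, A6 or B4 was left out, with an adjusted p of up to 0.224. For MS+EA against Control the difference of 0.48 (SE 0.09) had an adjusted p of 0.0164 and was below the fold change threshold. Slc16a1, a lactate transporter, was at 29.9 to 38.2 CPM in Control, 49.5 to 52.9 CPM in MS and 37.9 to 46.3 CPM in MS+EA rats, with an adjusted p of 0.0578 for MS against Control. Abcb1a, the efflux pump P-glycoprotein, was higher in MS and MS+EA rats than in all Control rats, with log2 differences of 0.35 (SE 0.09) and 0.42 (SE 0.09). Abcg2, another efflux pump of the barrier, went the other way, at 17.9 to 19.9 CPM in Control rats and 6.55 to 12.8 CPM in MS rats, and its adjusted p of 0.241 did not pass.

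Markers of the cells around the endothelium are given beside these results, and their part in them was not tested. Like the 8 genes, they were higher in MS than in Control rats. For MS+EA against Control the median log2 difference was 0.18 for the 8 genes and 0.18 for pericyte markers. It was 0.52 for smooth muscle and 2.01 for fibroblast and meningeal markers. All 15 pericyte markers had a positive log2 difference for MS against Control, with a median of 0.29 and 0 past both thresholds. DESeq2 called 1 of them, against 69 of all 16837 genes. Their summed level was 207 to 235 CPM in Control, 250 to 291 CPM in MS and 209 to 258 CPM in MS+EA rats. Of the defining pericyte genes Pdgfrb, Rgs5 and Kcnj8, none had ranges that stayed apart in any comparison. Notch3, which pericytes share with smooth muscle, was at 33.2 to 43.2 CPM in Control, 43.4 to 50.7 CPM in MS and 35.5 to 40.9 CPM in MS+EA rats. Tbx18, Vtn and Anpep were higher in all MS than in all Control rats and highest in B4.

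Smooth muscle markers were higher in MS than in Control rats in 7 of 7 cases, with a median log2 difference of 1.12, or 0.38 without B4, and for MS+EA against MS the median turned from -0.37 to 0.12 without B4. None passed both thresholds on 9 rats, and 1 did without B4 for MS+EA against Control, where 304 of all 17149 genes did. Their summed level was 59.8 to 70.1 CPM in Control rats, 87.4 CPM in B3, 228.5 CPM in B4 and 80.4 CPM in B6, and 74.6 to 105 CPM in MS+EA rats. Acta2, the smooth muscle actin, was at 44.2 CPM in B4 and at 8.02 to 15.3 CPM in the other 8 rats, and Myh11 and Tagln were also highest there. Myl9, a myosin light chain, was at 14.1 CPM in B4. All 10 fibroblast and meningeal markers had a positive difference for MS against Control, with a median of 2.23, or 1.0 without B4, and 9 of 10 for MS+EA against Control, with a median of 2.01. For MS+EA against MS the median was -0.33 with 9 of 10 lower, and without B4 it was 0.93 with all 10 higher. None passed both thresholds with edgeR on 9 rats, while without B4 6 of the 10 passed for MS+EA against Control, and DESeq2 on 9 rats called 1 there. Over all genes these 2 settings called 304 of 17149 and 316 of 16837. Of their defining genes, the collagens, Col1a1 was at 6.34 to 7.68 CPM in Control rats, 8.57 CPM in B3, 72.8 CPM in B4 and 19.8 CPM in B6, and 27.2, 8.58 and 45.5 CPM in C3, C10 and C16. Col3a1 and Col1a2 had the same order of rats within the MS group.

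Globins and other red cell genes gave a summed level of 120 to 237 CPM in Control, 272 to 380 CPM in MS and 239 to 366 CPM in MS+EA rats. Each of the 8 tested was higher in MS than in Control rats, with a median log2 difference of 0.84 and 0 past both thresholds. Hba1 was at 51.3 to 109.6 CPM in Control and 120 to 166 CPM in MS rats. Perivascular macrophage markers were low, at 6.96 to 11.6 CPM summed in Control and 8.05 to 22.6 CPM in MS rats, and choroid plexus markers at 3.05 to 3.90 CPM in Control and 3.44 to 13.4 CPM in MS rats, each with the highest value in B4. Astrocyte and neuron markers differed less, with median log2 differences for MS against Control of 0.08 and 0.04, and 0 of 20 past both thresholds in any comparison. Oligodendrocyte markers had a median of -0.23 for MS against Control and 0.37 for MS+EA against MS, and precursor markers of -0.15 and 0.00. B3 had the lowest fibroblast sum of the MS group, 71.5 CPM, and was above every Control rat in the fibroblast, smooth muscle and pericyte sums. Of the 8 endothelial identity genes, all but Cdh5 were also higher in B3 than in every Control rat. C3 and C16 had higher fibroblast sums, 185 and 291 CPM. Their Tek levels, 52.2 and 41.7 CPM, were above every Control rat, and so were their Kdr, Vwf and Cdh5 levels. Kdr was at 40.0 and 30.1 CPM, Vwf at 107.4 and 109.5 CPM and Cdh5 at 17.7 and 19.9 CPM. Pecam1 and Flt1 were above every Control rat in C3 and not in C16. Their Cldn5 levels were 50.6 and 49.2 CPM and their Cd93 levels 13.7 and 10.3 CPM, near or below those of Control rats. Whether the fibroblast sums and the levels of the endothelial genes are linked was not tested.

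**Figure D5:**
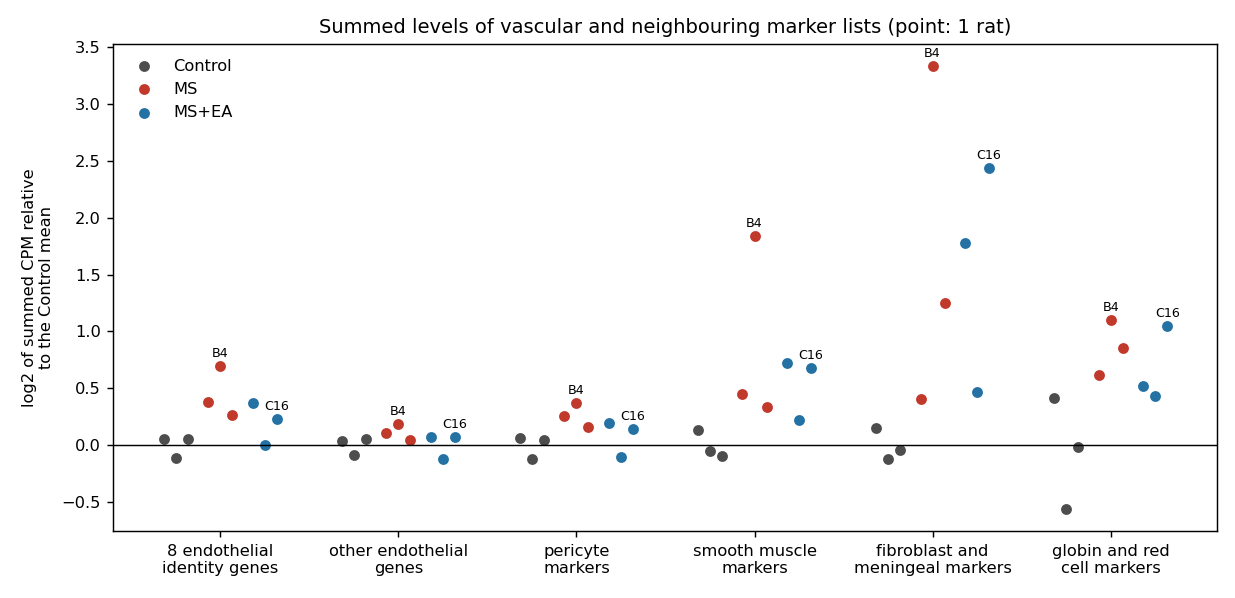
Summed CPM of each gene list relative to its Control mean, on a log2 scale (y axis), for the 8 endothelial identity genes, other endothelial genes and 4 lists of neighbouring cells and blood (x axis). Points are rats, with B4 and C16 labelled. B4 is at 0.70 for the 8 genes, 0.19 for other endothelial genes and 3.33 for fibroblast and meningeal markers.

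Summed over the 8 genes, the level was 230 to 259 CPM in Control rats, 299 to 403 CPM in MS rats and 250 to 322 CPM in MS+EA rats. Vwf contributes most to this sum, so the levels were also centred on the log2 scale for each gene and averaged. That average was -0.15, -0.28 and -0.10 in A1, A2 and A6, 0.20, 0.41 and 0.12 in B3, B4 and B6, and 0.15, -0.27 and -0.07 in C3, C10 and C16. The MS rats lay above all Control rats in both measures, and the MS+EA rats spread over both groups, with C3 near the MS rats and C10 near the lowest Control rat.

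The genes most like Cd93 over the 9 rats, by Pearson's r of log2 CPM among 15250 genes of at least 1 CPM on average, were Gramd2 (r = 0.95), Pih1d1 (0.95), Tnfrsf21 (0.93), Lpcat3 (0.92) and Fam43b (0.92). Pih1d1 was at a mean of 4.85 CPM in Control, 6.08 CPM in MS and 3.47 CPM in MS+EA rats. None of these 5 is among the endothelial genes listed. The genes most like the centred average of the 8 were Aqp9 (r = 0.97), Tgm2 (0.95), Cxcl12 (0.94), Tep1 (0.93) and Rcn3 (0.92). Tgm2, a transglutaminase made by endothelial and other cells, was at a mean of 7.95 CPM in Control, 17.2 CPM in MS and 8.04 CPM in MS+EA rats, and Cxcl12, a chemokine of vessels and meninges, at 114 CPM, 140 CPM and 120 CPM. These are the highest of 15250 values over 9 rats that share 3 groups, and they are given as likeness of pattern with no test.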

How the data were processed

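Total RNA depleted of rRNA from the frontal cortex of 9 rats was sequenced on an Illumina instrument, and the authors deposited 1 table of whole-number read counts per gene without normalization. Per the submitters' processing notes the reads were aligned with HISAT2 2.0.4 to Rnor_6.0. The counting program, its strand setting and its handling of reads with several locations are not given in the sources used here, so reads of overlapping or antisense genes cannot be told apart. Groups were taken from the labels, which do not pair the rats, and no batch or date is given.

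The 8 members, the 23 other gene lists and the rule for named genes were chosen with earlier results of these data known. The rule takes all members, list genes past both thresholds, up to 4 genes with the smallest unadjusted p per vascular list, defining markers of other cells, and the 5 genes most like Cd93 and most like the members' average. A gene that the rule names is not reported here.

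Counts were normalized by TMM in edgeR 4.0.16 (R 4.3.3), filtered by filterByExpr (minimum count 10) and fitted over all 9 rats by quasi-likelihood, with 1 mean for each group. The authors' test, EBSeq, was not run here. Thresholds were a Benjamini-Hochberg adjusted p under 0.05 over 16837 genes and a fold change above 1.5. Each standard error was taken as |log2 fold change|/√F. The biological coefficient of variation was 12.7%. No exact permutation test is given for single values, since 3 rats per group cannot reach a two-sided p below 0.1. Totals of 12479905 to 19007907 counts per rat set the counting error, and counting errors cover reads alone. On simulated counts for MS against Control over 16837 genes, 173 of 200 genes changed 2-fold were recovered, with 5 false calls. Every simulated gene had the common biological coefficient of variation of 12.7%, and no library was made to stand apart as B4 does. Real spreads could be wider, with a coefficient of variation of 31.0% for Vwf in MS rats. The recovered share is thus a check of the fit and not the power for the genes described here. The 17 alternatives were DESeq2 1.42.0, limma-trend (limma 3.58.1), bias-adjusted deviances, RLE factors, total counts, 2 other filters, a fit of only the 6 rats compared, and omission of each rat. Promoters came from RefSeq (GRCr8). Tables and plots used Python 3.11.15, pandas 2.3.3 and matplotlib 3.10.9.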

Additional observations from a re-analysis of the deposited data

How the results depend on the processing

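The median log2 difference of the 8 genes and that of the other endothelial genes moved by less than the spread between rats under all 17 alternatives, as did all 408 alternative values of single members. That spread is the pooled SD of single rats within groups. Omitting 1 of 3 rats can hardly shift a group mean by more, so the omissions could not decide this. Signs changed within it. Without B4, Cdh5 went from 0.16 to -0.05 for MS against Control and Vwf from -0.10 to 0.18 for MS+EA against MS. In the latter comparison Vwf was also positive without C10, at 0.03, and Cdh5 went from 0.16 to -2.9e-05 without C16. For MS+EA against Control, Pecam1, Flt1 and the median of other endothelial genes changed sign in some omissions. The number of the 8 past both thresholds went from 0 to 1 for MS against Control (Kdr) and from 0 to 1 for MS+EA against MS (Cd93) with DESeq2 and with the filter of at least 1 count, and stayed at 0 under the other alternatives and for MS+EA against Control. The number of all genes called depended more on the setting. For MS against Control it was 4, and 69 with DESeq2, 207 with at least 1 count, 11 with only the 6 rats compared, and 2 to 22 with 1 rat left out (2 without A1 or A2, 22 without B3, 9 without C3, 10 without C10). For MS+EA against MS it was 3, and 42 with DESeq2, 1 with bias-adjusted deviances, 72 with at least 1 count, 0 with at least 10 counts in every rat, 1 with only the 6 rats compared, and 1 to 4 with 1 rat left out (1 without A1 or C16). For MS+EA against Control it was 230, and 469 with at least 1 count and 71 to 304 with 1 rat left out (71 without A1, 121 without C10). The cause was not tested, except that the filters test other numbers of genes and the omissions fewer rats. No paired analysis was possible because each rat belongs to 1 group and the labels pair none of them. The members had 130 to 2282 reads per rat, with a counting error of 2.09% to 8.77%, and 3 rats per group limit all comparisons.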
